A study of Caenorhabditis elegans with 59 samples.

Results

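Late embryos of the worm Caenorhabditis elegans that lacked EBAX-1 were compared with wild-type late embryos by small-RNA sequencing (sRNA-seq). The comparison holds 4 of the 59 libraries of the series, 2 from the wild-type strain N2 and 2 from strain CZ9907, which carries ebax-1(tm2321), described by the study as a null allele. Worms were grown at 20 °C on E. coli OP50, embryos were freed from their parents with bleach, and late embryos were collected after 6 h in M9 buffer, without food. Of 310 miRNA strands in the count table, 303 were used, and the 201 whose mean in the wild-type libraries reached 5 on the scale of CPM + 1 (CPM, miRNA counts relative to the library's total) were tested. The filter reads the wild-type libraries only. These are 1 side of the comparison, so the filter can keep strands high only there and drop strands high only in the mutant. The libraries were made from whole embryos, so more of a miRNA per cell and more cells that make it cannot be told apart. The mutant is 1 strain with 1 allele, and miRNA counts give no reading of the ebax-1 transcript, so the genotype of a library could not be checked. In adults of this line the study found piRNAs from a region of chromosome IV lowered. It proposes a second-site mutation apart from ebax-1, and differences of this kind cannot be told from the effect of ebax-1 here.

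EBAX-1 is the nematode ortholog of ZSWIM8, the part of a Cullin-RING ubiquitin ligase that selects substrates. In mammals and flies this ligase acts in target-directed miRNA degradation (TDMD), in which an unusually paired RNA exposes the Argonaute protein that holds the miRNA, and loss of Argonaute leaves the miRNA to nucleases. A hairpin precursor gives a guide strand, which stays in Argonaute, and a passenger strand, which is discarded, so the passenger (marked with an asterisk) reports on how much precursor was made. The miR-35 family comprises miR-35 to miR-42, and worms without any of its members die as embryos or young larvae.

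The 4 libraries were among the deeper ones of the time course. They held 9208193 and 8979387 miRNA counts in the wild type and 7683829 and 9492560 in the mutant, against a median of 5789217.5 over the 32 libraries of that experiment. The replicates differed from each other by more than counting noise, with a chi-square per degree of freedom of 23.6 in the wild type and 24.0 in the mutant, so neither pair was a copy. Fold changes are relative to TMM scaling, which assumes that most strands do not change. Scaled by total counts instead, the median over the tested strands went from -0.01 to -0.19 on the log2 scale.

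By edgeR's quasi-likelihood test, at a Benjamini-Hochberg adjusted p under 0.01, levels rose for 27 of 201 strands (13.4%) without EBAX-1 and fell for 10 (4.98%). The list of 22 EBAX-1-sensitive miRNAs, named over all stages, supplied 16 of the strands that rose and 0 of those that fell, with a median log2 fold change of 0.58 against -0.01 over all tested strands. All 14 on the list for late embryos rose, with a median of 0.98. Both lists come from the study and were chosen on these same libraries, so their counts are not independent evidence of direction. In the newer form of edgeR's test (legacy = FALSE) 17 strands were higher and 2 lower, and in 1 fit of all 32 time course libraries 7 were higher and 0 lower (17 and 1 at an unadjusted p under 0.05). The 7 that rose in that fit were miR-37, miR-38, miR-44, miR-64, miR-65, miR-250 and miR-253, and these rose under every alternative in which they were tested. Another 8, namely miR-35, miR-36, miR-39 to miR-43 and miR-71, missed the threshold only in the fit of 32 libraries.

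**Figure D1:**
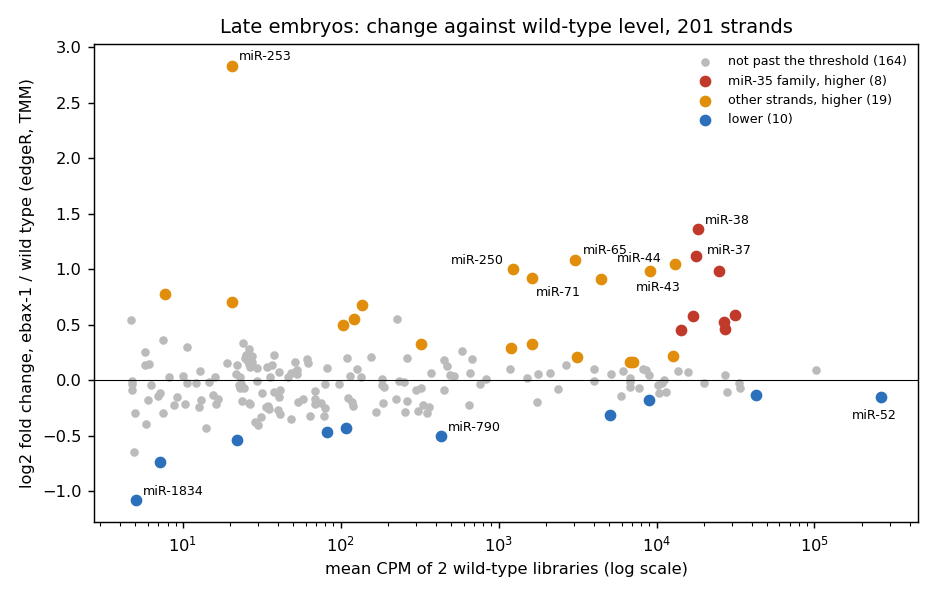
Each point is 1 of 201 miRNA strands, with its mean level in the 2 wild-type libraries (CPM, log axis) against its log2 fold change in ebax-1(tm2321). The 8 miR-35 family guides (red) lie between 0.45 and 1.36 at high levels, miR-253 stands at 2.83 at a low level, and the abundant miR-52 lies just below 0.

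miR-253 had the largest fold change. It was counted at 19.8 and 20.9 CPM in the wild-type libraries and at 113 and 142 CPM in the mutant libraries, which rested on 182 and 188 counts and on 871 and 1345 counts. The groups stood far apart, and the mutant libraries differed from each other more than the wild-type ones did. The log2 fold change (log2FC) was 2.83, with its standard error (SE) 0.13 (adjusted p = 2.5e-11), or 7.12-fold. Its hairpin lies on chromosome V from 5780510 to 5780616 (WBcel235), within the protein-coding gene F44E7.5 and on its strand. The passenger strand did not reach the filter, with 19 and 8 counts in the wild type and 8 and 11 in the mutant, so no ratio of guide to passenger was tested.

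Of the 8 members of the miR-35 family, 8 rose, with a median log2 fold change of 0.58, and they differed in size. miR-38 was counted at 18454 and 18194 CPM in wild-type libraries and at 41576 and 41400.4 CPM in mutants (log2FC 1.36, SE 0.03, adjusted p = 2.4e-15). miR-37 stood at 17999 and 17552 CPM against 34212 and 33791 CPM (1.12, 0.03). miR-35 stood at 24467 and 25078 CPM against 43183 and 42982 CPM (0.98, 0.03). In these 3 members the mutant libraries were at nearly the same level as each other and well above the wild type.

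The other members rose less. miR-36, the most abundant member in wild-type late embryos, was at 31464 and 31067 CPM in wild-type libraries and at 41996 and 40687 CPM in mutants (log2FC 0.58, SE 0.03). miR-39, miR-40 and miR-41 had log2 fold changes of 0.52, 0.46 and 0.58. miR-42, the least abundant member, was at 14376 and 14383 CPM against 17606 and 17083 CPM (0.45, 0.03). The groups did not overlap for any of the 8, with the mutant above on CPM. Over all 201 tested strands the mutant lay above without overlap at 26 and below at 131 on that scale.

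The spread within the family can be read without any scaling from the ratio of a pair of members in 1 library. The log2 ratio of miR-38 to miR-36 was -0.77 in both wild-type libraries and -0.01 and 0.03 in the mutant libraries, a shift of 0.78. That of miR-37 to miR-36 shifted by 0.53, from -0.81 and -0.82 to -0.30 and -0.27. The wild-type and mutant ratios did not overlap, and the exact permutation test of 2 against 2 libraries gave p = 0.333, the smallest value this design allows. So in wild-type late embryos miR-36 had more counts than miR-38, and in the mutant the counts of the pair were level. Counts of different miRNAs were not set on an absolute scale.

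The hairpins of miR-35 to miR-41 lie side by side on chromosome II between 11537608 and 11538404 (WBcel235), on the plus strand, so their precursors can come from 1 transcript. The guides of this cluster spanned log2 fold changes of 0.46 to 1.36. Their passenger strands were scarce, with mutant means of 18.5 to 61.8 CPM, and 0 of the 7 passed. The miR-38 passenger was at 60.2 and 62.0 CPM in wild-type libraries and at 65.2 and 58.4 CPM in the mutant, and these groups overlapped. The miR-36 passenger was at 28.7 and 30.8 CPM against 22.3 and 17.6 CPM (log2FC -0.41, SE 0.13, adjusted p = 0.031), short of the threshold of 0.01. The log2 ratio of these passengers, miR-38 to miR-36, also shifted, by 0.60, from 1.07 and 1.01 to 1.55 and 1.73, without overlap between the genotypes and on 167 to 557 counts a strand.

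The hairpins of miR-42 to miR-44 form a second cluster on chromosome II, between 11889811 and 11890118 on the plus strand, and their guides belong to 3 families. miR-43, of the conserved miR-2 family, was at 8875 and 9271 CPM in wild-type libraries and at 16385 and 15262 CPM in mutants (log2FC 0.98, SE 0.04). The entry for miR-44, whose mature strand is identical to that of miR-45, stood at 12995 and 13010 CPM against 23032 and 24360.0 CPM (1.05, 0.04). Both rose by more than their neighbor miR-42. Relative to miR-42, the log2 ratio of miR-43 shifted by 0.53 and that of miR-44 by 0.60, without overlap between the genotypes, while the ratio of the miR-43 to the miR-42 passenger overlapped between them. The passengers of miR-44 and miR-45, which are distinct, had log2 fold changes of -0.09 (SE 0.11) and 0.11 (0.11).

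**Figure D2:**
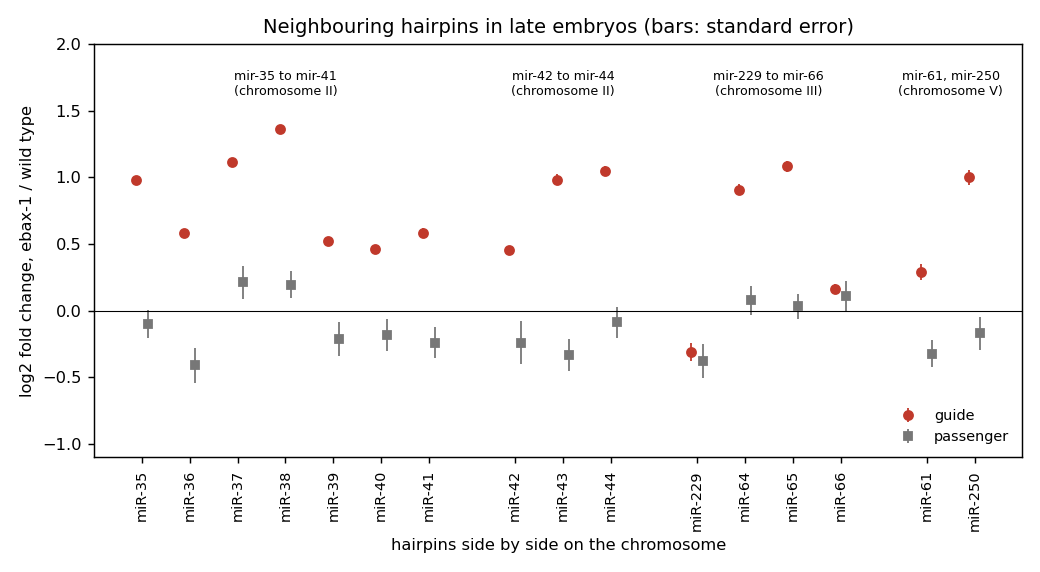
Guides (red circles) and passengers (gray squares) of hairpins that lie side by side, with log2 fold changes in ebax-1(tm2321) late embryos and their standard errors (2 libraries a genotype). Within each cluster the guides took different values, from 0.46 to 1.36 for mir-35 to mir-41 and from -0.31 to 1.08 for mir-229 to mir-66, and the passengers stayed between -0.41 and 0.21.

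Another cluster, of miR-229, miR-64, miR-65 and miR-66, lies inside gcn-1, on the strand of that gene (chromosome III, 2172452 to 2173206). miR-65 was at 3025 and 3091 CPM in wild-type libraries and at 5714 and 5716 CPM in mutants (log2FC 1.08, SE 0.04), and miR-64 at 4386 and 4513 CPM against 7405 and 7310.0 CPM (0.91, 0.04). miR-229 went the other way, from 4628 and 5539 CPM to 3489 and 3736 CPM (-0.31, 0.07, adjusted p = 0.0030). miR-229 missed the threshold by DESeq2. miR-66 was at 7062 and 7105 CPM in wild-type libraries and at 7028 and 6923 CPM in the mutant. Its log2 fold change of 0.16 (0.04) passed the test relative to TMM scaling and was -0.02 when libraries were scaled by total counts. From wild type to mutant, the log2 ratio of miR-65 to miR-229 shifted by 1.39 and that of miR-65 to miR-66 by 0.92. The related miR-63, which lies elsewhere, had a log2 fold change of 0.05 (0.07).

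miR-250 and miR-61 are neighbors on chromosome V, from 11769917 to 11770156 on the minus strand, and belong to the miR-2 and miR-44 families. miR-250 was at 1263 and 1194 CPM in wild-type libraries and at 2100 and 2227 CPM in mutants (log2FC 1.00, SE 0.06, adjusted p = 4.3e-10). miR-61 was at 1220 and 1163 CPM against 1271 and 1294 CPM (0.29, 0.06, adjusted p = 0.0017). The groups were apart for both, but the rise of miR-61 missed the threshold under total-count scaling, where its log2 fold change was 0.11. It also missed the threshold without mutant replicate 2. Relative to miR-61, miR-250 gained 0.71 on the log2 scale.

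Members of 1 family therefore differed in their values. In the miR-2 family miR-43 and miR-250 rose, and the most abundant member, miR-2, did not pass, with 27046 ± 497 CPM in wild-type libraries and 24671 ± 183 CPM in the mutant, SD, n = 2 (log2FC 0.05, SE 0.03, adjusted p = 0.26). The log2 ratio of miR-43 to miR-2 shifted by 0.93. The heat-responsive miR-797, at 22.9 ± 1.34 CPM in wild-type libraries and 20.5 ± 1.32 CPM in mutants (SD, n = 2), had a value of 0.02 (0.12). In the miR-44 family miR-44 and miR-61 rose and miR-247 did not pass, on 70 to 111 counts a library (-0.02, 0.15).

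**Figure D3:**
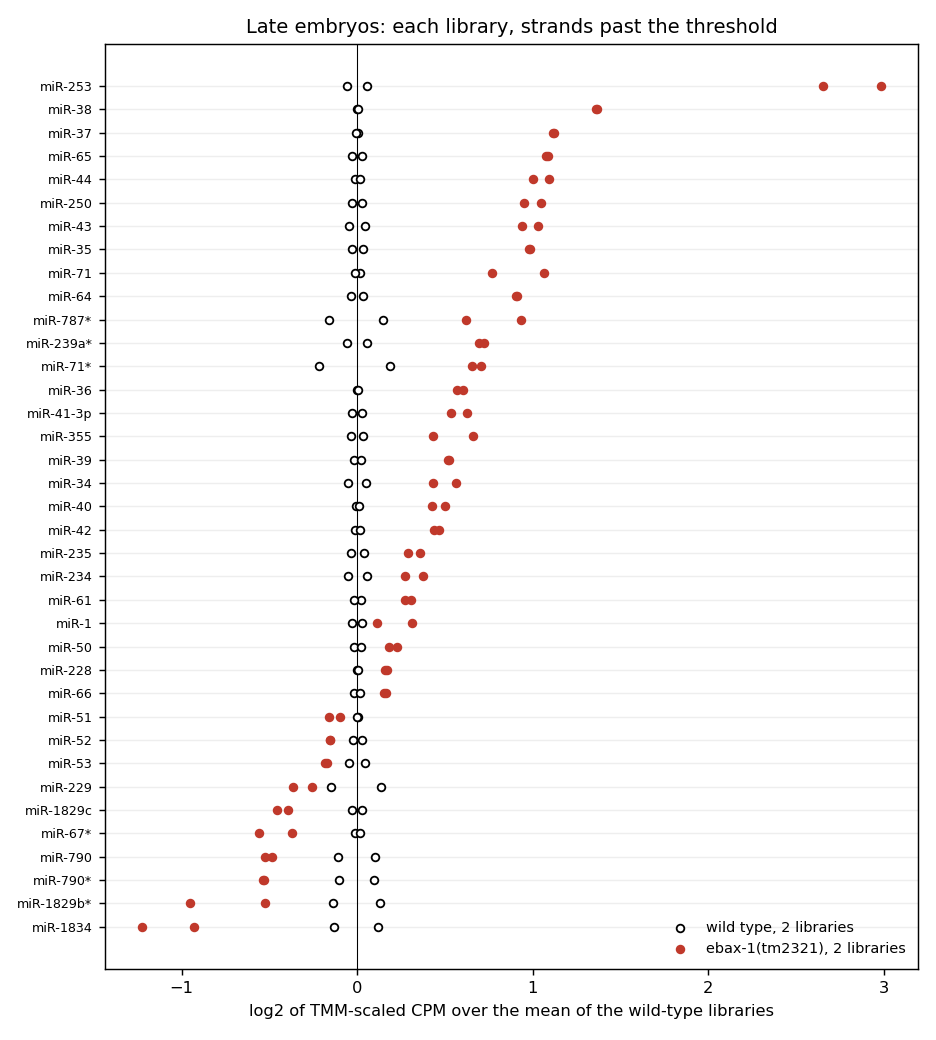
TMM-scaled level of the 37 strands past the threshold in each of the 4 late embryo libraries, as log2 over the wild-type mean. Open circles are wild-type and red circles mutant libraries. For every strand drawn the mutant libraries lie on one side of both wild-type libraries on this scale. Over all 201 tested strands this held at 75 with the mutant above and at 66 with it below, so it is common here.

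miR-71, studied for its part in lifespan and stress resistance, rose together with its passenger. The guide was at 1663 and 1602 CPM in wild-type libraries and at 2464 and 2993 CPM in mutants (log2FC 0.92, SE 0.07, adjusted p = 3.1e-08). The passenger went from 156 and 115 CPM to 188 and 194 CPM (0.68, 0.11, adjusted p = 0.00032). It was the only passenger of the 22 miRNAs that passed, out of 18 tested, and it missed the threshold with legacy = FALSE. The log2 ratio of guide to passenger was 3.41 and 3.78 in the wild type and 3.70 and 3.94 in the mutant, and these groups overlapped.

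The remaining 6 of the 22 miRNAs did not pass in late embryos. Of miR-230, miR-239b, miR-247, miR-788-5p and miR-797, the list of heat-responsive miRNAs, 0 of 5 passed. Over all tested strands 13.4% were higher and 4.98% lower, so a count of 0 among 5 does not set this list apart. miR-230, at 4.78 and 4.68 CPM in wild-type libraries and 5.99 and 6.11 CPM in the mutant, was the lowest strand above the filter and rested on 42 to 58 counts a library (log2FC 0.54, SE 0.17, adjusted p = 0.036). miR-788-5p was at 644 and 664 CPM against 478 and 508 CPM (-0.23, 0.07, adjusted p = 0.031). miR-244 was at 8552 and 8600.0 CPM against 7963 and 8135 CPM (0.09, 0.04). Just below the filter lay miR-1824, at a wild-type mean of 4.90 on the CPM + 1 scale and 37, 34, 33 and 25 counts. The strand left out that was highest in the mutant was the miR-4814 passenger, at 36 and 22 counts in the wild type and 47 and 38 in the mutant.

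Guide and passenger of the same hairpin were compared to ask whether the precursor or the mature strand had changed. The log2 ratio of guide to passenger, on CPM + 1, was tested with limma across 78 hairpins, at an adjusted p under 0.05. It rose at 19 hairpins (24.4%) and fell at 2 (2.56%), with a median change of 0.14 over all hairpins. Standard errors in this test lay between 0.13 and 0.16 at every hairpin, since limma pooled the spread. Of 22 hairpins whose guide had risen, the ratio rose at 16 and fell at 0, with a median of 0.68. These guides had been called in the same libraries, so a higher ratio is not independent of that call. At the other 56 hairpins the ratio rose at 3 and fell at 2, with a median of 0.05. Among the 3 was miR-1829b, whose passenger has the same sequence as that of miR-1829c. The shares lay closer together with a filter at 50 CPM, where the ratio rose at 6 of 11 hairpins whose guide had risen (median 0.34) and at 11 of 27 others (median 0.16).

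A higher ratio can come from either strand. The largest rise in the ratio was at miR-43, from 8.18 and 8.08 in the wild type to 9.41 and 9.44 in the mutant, a log2 change of 1.29 (SE 0.13, adjusted p = 1.1e-12). There the guide had a log2 fold change of 0.98 and the passenger one of -0.33 (SE 0.12), so both entered this rank. The passengers of miR-36 and miR-61 were lower as well (-0.41 and -0.32), while those of miR-37 and miR-38 were higher (0.21 and 0.19). The miR-38 ratio went from 8.24 and 8.17 to 9.29 and 9.45 (1.17, 0.13) and the miR-250 ratio from 4.27 and 4.50 to 5.61 and 5.49 (1.16, 0.13). The genotypes were apart at each. All 8 hairpins of the miR-35 family were among the 19, from 0.63 at miR-40 to 1.17 at miR-38. The 23 tested partner strands of guides that rose had a median log2 fold change of 0.03, close to the -0.01 of all tested strands, and 1 of them, the miR-71 passenger, passed. Over the 18 tested passengers of the 22 miRNAs the median was -0.13, and over all 74 passenger strands it was -0.09, with 3 higher and 3 lower.

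The 2 hairpins at which the ratio fell were miR-787 and miR-239a. Their passengers rose, and their guides did not pass. The miR-787 passenger had 64 and 76 counts in the wild-type libraries and 100 and 99 in the mutant libraries (log2FC 0.77, SE 0.16, adjusted p = 0.0023). By DESeq2, and without mutant replicate 1, it missed the threshold. The miR-239a passenger was at 21.5 and 19.5 CPM against 29.3 and 29.7 CPM (0.71, 0.12, adjusted p = 0.00026). Neither passenger passed with legacy = FALSE.

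**Figure D4:**
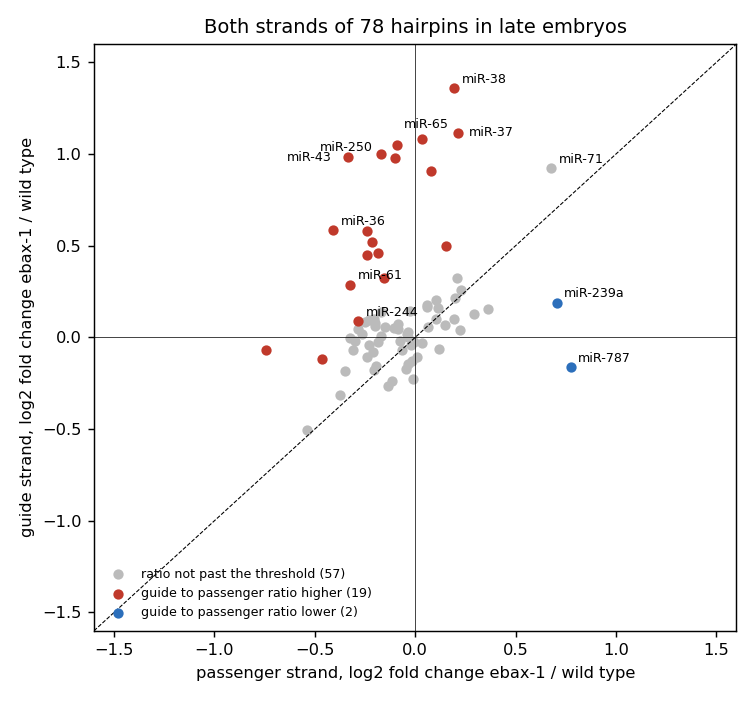
Log2 fold changes of the passenger (horizontal) and the guide (vertical) of 78 hairpins in ebax-1(tm2321) late embryos, with equal change on the dashed line. Red points are the 19 hairpins whose guide to passenger ratio rose and blue points the 2 at which it fell. miR-38 lies at 1.36 against 0.19, and miR-71 close to the line at 0.92 against 0.68.

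The make-up of the miRNA pool differed between the genotypes. The miR-35 family held 17.8% and 17.7% of all miRNA counts in the wild-type libraries and 26.8% and 26.5% in the mutant libraries. The guides of miR-35 to miR-44 together went from 19.9 ± 0.078% to 30.6 ± 0.24% (SD, n = 2). The miR-51 family, the largest in the pool and needed for embryonic development, went from 40.8% and 41.2% to 33.2% and 32.8%. Expressed as a percent of counts outside the 22 miRNAs, the miR-51 family was at 52.6% in the wild type and 49.6% in the mutant, so that its ratio of mutant to wild type was 0.94 in place of 0.81. The exact permutation p was 0.333 for each of these shares, the smallest that 2 against 2 libraries can give.

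When wild-type libraries were scaled so that counts outside the 14 miRNAs of the late embryo list equaled those of the same-numbered mutant library (pairing by the other number gave 14.3% as well), the surplus of those 14 in the mutant was 14.4% and 14.1% of all mutant miRNA counts, a mean of 14.3 ± 0.23% (SD, n = 2). With the 27 strands that rose here as the set, it was 15.2%. Both sets were picked on these same libraries, so a positive surplus follows in part from that choice. Guides of miR-35 to miR-44 made up 94.5% of the surplus over the 14. miR-38 alone made up 18.1%, miR-35 15.3%, miR-37 13.1%, miR-36 10.2% and miR-44 8.79%, and miR-253, the largest in fold, 0.077%.

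Among the 10 strands that fell, 3 belonged to the miR-51 family. miR-52, the most abundant miRNA of the libraries, was at 261357 and 266281 CPM in wild-type libraries and at 210090.0 and 207787 CPM in the mutant. Relative to TMM scaling this was a log2 fold change of -0.16 (SE 0.02, adjusted p = 7.9e-05). miR-51 had -0.13 (0.03) and miR-53 -0.18 (0.04). miR-54, miR-55 and miR-56 did not pass, with -0.11 (0.03), -0.07 (0.03) and -0.02 (0.03). The family's median was -0.12. These values are small, and miR-51 missed the threshold by DESeq2, when libraries were scaled by counts outside the 22 and without mutant replicate 2.

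miR-790, listed as a miRNA of neurons, fell with its passenger. It was at 465 and 395 CPM in wild-type libraries and at 264 and 269 CPM in mutants (log2FC -0.51, SE 0.09, adjusted p = 0.00036), and it held under every alternative other than the fit of 32 libraries. The passenger was at 23.9 and 20.4 CPM against 13.5 and 13.4 CPM (-0.54, 0.13, adjusted p = 0.0052) and held under 5 of 14 alternatives. The ratio of guide to passenger at this hairpin did not pass. In fits of each stage alone miR-790 was also lower in mutant early embryos (-0.87, SE 0.17) and L1 larvae (-0.54, 0.09), so its fall was not particular to late embryos.

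miR-1834, of the miR-58 family, had the largest fall, from 5.54 and 4.57 CPM to 2.34 and 1.90 CPM, on 18 to 51 counts a library (log2FC -1.08, SE 0.22, adjusted p = 0.0015). It missed the threshold by DESeq2, without wild-type replicate 1 and without mutant replicate 2. It passed the filter through its wild-type level (mean 5.05 CPM) and had a mutant mean of 2.12 CPM. Its fall is therefore not independent of the filter. miR-1829c fell (-0.43, 0.10), and so did the passengers of miR-67 (-0.46, 0.10) and, as named in the table of counts, miR-1829b (-0.74, 0.20). The study states that the passengers of miR-1829b and miR-1829c have the same sequence and left both out. The entry can therefore not be assigned to 1 of these hairpins. It also passed the filter through its wild-type level (mean 7.19 CPM), with a mutant mean of 3.85 CPM. Without mutant replicate 2, 3 strands were lower in place of 10, and 20 were higher in place of 27.

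In the miR-58 family, related to bantam of flies, miR-1834 fell and the other 4 of 5 members did not pass, and miR-58 itself was at 104248 and 101201 CPM against 94749 and 98398 CPM (log2FC 0.09, SE 0.03, adjusted p = 0.017). Of the miR-72, miR-75, miR-86 and miR-87 families 0 members passed among 3, 2, 2 and 3. In the let-7 family, which times larval development, 0 of the 3 members above the filter passed. Over all tested strands 13.4% were higher and 4.98% lower, so a count of 0 in families this small does not set them apart. let-7 had 13 to 27 counts a library and lin-4 17 to 26, below the filter.

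Marker miRNAs of single tissues were also read. miR-1 of muscle was at 13156 and 12431 CPM in wild-type libraries and at 12227 and 13931 CPM in the mutant, which overlap, and passed relative to TMM scaling but not to total counts (log2FC 0.21, SE 0.05). miR-228 of glia was at 6807 and 6700.0 CPM against 6665 and 6682 CPM (0.16, 0.04), and its value was -0.02 under total-count scaling. miR-60 of intestine had -0.04 (0.04). Of 5 neuronal miRNAs, miR-234 rose (0.32, 0.08), miR-790 fell, and lsy-6, miR-124 and miR-791 did not pass. Of 10 miRNAs listed for the germline and early embryo 9 rose (13.4% over all tested strands), namely the miR-35 family and miR-43. These 9 are also on the study's list for late embryos, chosen on these same libraries, so their count is not a separate reading of tissue. miR-70 had 0.10 (0.05). Of 7 tested miRNAs studied in ageing and stress, 3 rose (13.4% over all tested strands), namely miR-34 (0.50, 0.10), miR-71 and miR-228. miR-34 missed the threshold without mutant replicate 2, and miR-228 both there and under total-count scaling. miR-235, miR-355 and miR-50, outside the rule for named miRNAs, also rose, with 0.32 (0.06), 0.55 (0.10) and 0.21 (0.05). Under total-count scaling miR-234, miR-235 and miR-50 missed the threshold, with 0.14, 0.14 and 0.024, and without mutant replicate 2 miR-234, miR-355 and miR-50 did.

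Strands that change with the age of the worm in the wild type were counted apart. Of 30 tested strands that rise at least 4-fold from early embryos to L1 larvae in the wild type, 7 were higher in mutant late embryos and 1 was lower (13.4% and 4.98% over all tested strands), with a median log2 fold change of 0.19. Among the 7 were miR-34, miR-71, miR-234 and miR-235. Of 21 tested strands outside the 22 that fall at least 4-fold over that time, 0 were higher and 1 was lower, with a median of -0.18. With the 22 kept in, as among the strands that rise, 30 falling strands were tested. Of these, 9 were higher and 1 was lower in mutant late embryos, with a median of -0.03. The medians of 0.19 and -0.18 lie above and below the -0.01 of all strands, but only the second leaves out the 22. The part of embryo age in the results was not tested. The miR-35 family itself falls over this time in the wild type and was higher in the mutant.

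The same comparison was made in early embryos, collected directly after bleaching, and in unfed L1 larvae, with 2 libraries a genotype at each stage. Summed over its 8 members, the miR-35 family was at 363835 CPM in wild-type early embryos, 177310.0 CPM in late embryos and 10883 CPM in L1 larvae. In the mutant it was at 417995, 266363 and 147726 CPM. From late embryo to L1 the family thus went down 16.3-fold in the wild type and 1.80-fold in the mutant, and from early to late embryo 2.05-fold and 1.57-fold.

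Whether the effect of the mutation differed between stages was tested as an interaction, at an adjusted p under 0.05. Against L1 larvae, 11 of 206 strands (5.34%) had a larger and 8 (3.88%) a smaller log2 fold change in L1 than in late embryos. All 8 members of the miR-35 family were among the 11, with differences of 2.46 for miR-42 to 3.65 for miR-36. miR-38, the highest of the family in late embryos, gained 3.11 (SE 0.10). miR-65 gained 0.48 (SE 0.09, adjusted p = 0.0096), a gain that missed the threshold without wild-type replicate 2 or either mutant replicate of the late embryos. miR-253, at 2.83 in late embryos and 3.12 in L1 larvae, had a difference of 0.33 (0.26, adjusted p = 0.52). miR-43, miR-44, miR-64 and miR-250 had differences of 0.10 (0.11), -0.27 (0.11), -0.03 (0.14) and -0.17 (0.10), and did not pass.

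miR-71 and miR-235 went the other way. miR-71 was at 1633 CPM in wild-type late embryos and 33485 CPM in wild-type L1 larvae, and its log2 fold change of 0.92 in late embryos stood against 0.13 (SE 0.15) in L1 (difference -0.76, 0.19, adjusted p = 0.026). The miR-71 passenger had a difference of -0.80 (0.17). miR-235, which holds cells of starved L1 larvae quiescent, had 0.32 in late embryos and -0.60 (0.13) in L1 (difference -0.89, 0.15, adjusted p = 0.0032). miR-71 and its passenger missed the threshold when single late embryo libraries were left out, and miR-235 held throughout.

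Against early embryos, 52 of 204 strands (25.5%) had a larger and 32 (15.7%) a smaller log2 fold change in late embryos, and the median over all strands was 0.20. This comparison rested on single early embryo libraries, which held 1343153 to 6137841 counts. With any 1 of these 4 left out, 7 to 18 strands had a larger change in place of 52, 21 to 50 a smaller one, and the median over all strands was -0.16 to 0.02. Scaled by total counts, 21 were larger and 41 smaller. Strands that rose in late embryos were called on libraries that also enter this difference, which favors a larger change there. Under every alternative, 4 of these strands had a larger change in late embryos. They were miR-253 (1.75 in early and 2.83 in late embryos, difference 1.16, SE 0.20), miR-38 (0.43 and 1.36, 1.02, 0.09), miR-65 (0.35 and 1.08, 0.82, 0.11) and miR-35 (0.29 and 0.98, 0.78, 0.09). miR-43, at 0.84 (0.11) in early embryos, and miR-41, at 0.55 (0.10), had differences of 0.23 (0.13) and 0.13 (0.18) that did not pass. miR-42 and miR-40 had the smallest values in late embryos within the miR-35 family and log2 fold changes of 0.16 (0.11) and 0.10 (0.10) in early embryos.

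**Figure D5:**
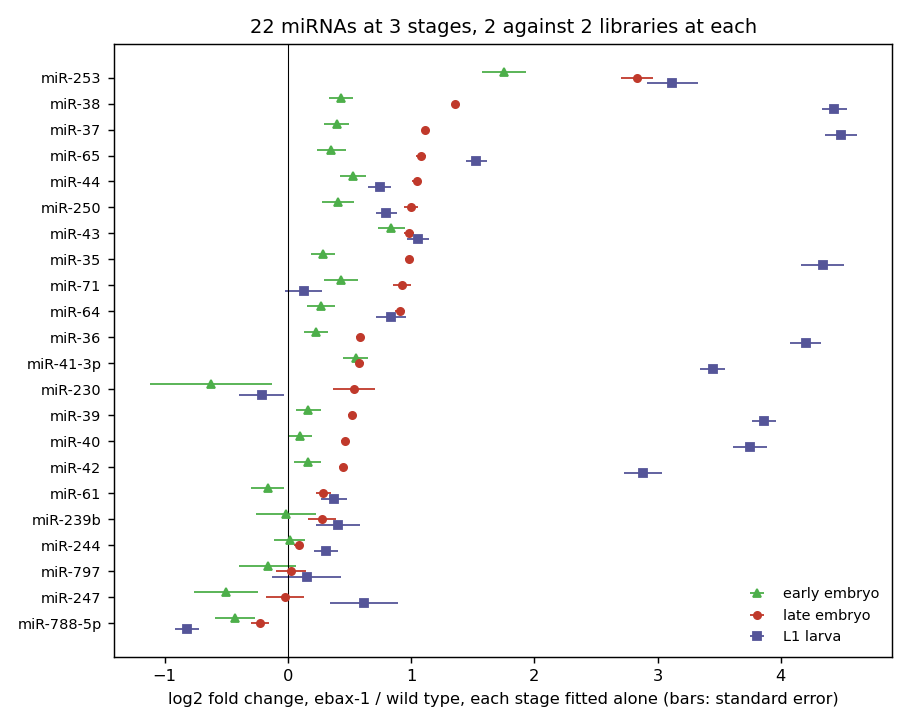
Log2 fold changes of the 22 miRNAs in ebax-1(tm2321) at 3 stages, each fitted on its own 4 libraries, with standard errors. For the miR-35 family the L1 values (purple squares), from 2.88 to 4.49, lie far above the late embryo values (red circles), while for miR-43, miR-44, miR-64 and miR-250 these lie close together.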

How the data were processed

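sRNA-seq libraries of wild-type and ebax-1(tm2321) late embryos were analyzed from the table of miRNA counts that the authors deposited. Per the study's methods, reads were trimmed (cutadapt is named in the submitters' processing notes), the first 19 nt were matched to a list of curated miRNAs, and spike-in counts were removed, so no absolute scale was at hand. The entry for miR-44 covers the identical miR-45. The study left out the passengers of miR-1829b and miR-1829c as identical, and the entry named for miR-1829b was kept here. Members that share their first 19 nt could not be told apart, which was not checked here. Of 310 entries, 7 variant entries were left out. No column was left unmapped. The study names 2 biological replicates a group. The edgeR p-values rest on the spread between replicates pooled across the tested strands, through trended dispersions and a prior. A very small p-value is therefore not a measure of that strand's own replicate spread alone.

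Strands that reached 5 in mean CPM + 1 over the wild-type libraries were scaled with TMM and tested with edgeR 4.0.16 (estimateDisp, glmQLFit, glmQLFTest) on the 4 libraries, with a threshold of 0.01 on Benjamini-Hochberg adjusted p. Standard errors are the log2 fold change over the root of F. In this version glmQLFit fits legacy = TRUE unless told otherwise. The form with legacy = FALSE replaced the trended dispersions (0.00131 to 0.00452) with a single one of 0.000256 and gave prior quasi-dispersions of 6.11 to 277. It was therefore kept as an alternative, a choice made with the counts of both forms known. On simulated late embryo counts of 198 strands, edgeR recovered 19, 20 and 20 of 20 strands changed 1.5-, 2- and 4-fold. DESeq2 recovered 16, 16 and 20 of them, and both called 0 of 138 unchanged strands. Whether these rates hold for the real libraries, where the number of calls depends on the scaling, was not tested. Guide to passenger ratios were tested with limma 3.58.1 at 0.05, and differences between stages as interactions in edgeR at 0.05. DESeq2 1.42.0, other scalings and filters, pooled fits, a replicate block and fits without each library were alternatives. The study matched same-numbered libraries for its surplus, while the main fits here did not use the replicate numbers. Deviations of same-numbered libraries from their group means had a correlation of 0.03 across 201 strands. That gives no sign of a shared deviation and cannot show that the samples were not paired.

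Named miRNAs were the 22 of the study with their passengers, up to 14 strands with the largest rise and 12 with the largest fall past the threshold and alike in both same-numbered pairs, and members of listed families, markers and heat or stress miRNAs. These members and lists were chosen with earlier results of these data known. Positions are those of WBcel235 (Ensembl annotation). The piRNA table, of gravid adults, was not used here.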

Additional observations from a re-analysis of the deposited data

Results flagged for a closer look

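Differences between stages were tested over 204 strands against early embryos and 206 against L1 larvae. They are listed here for those of the 37 strands called in late embryos that passed. The late embryo libraries that gave these calls also enter the difference, so a larger change in late embryos is favored by that choice. From late embryos to L1 larvae the log2 fold change in the mutant grew by 3.65 for miR-36, 3.40 for miR-37, 3.39 for miR-35, 3.38 for miR-39, 3.32 for miR-40, 3.11 for miR-38, 2.90 for miR-41, 2.46 for miR-42 and 0.48 for miR-65. It went down from late embryos to L1, with differences of -0.89 for miR-235, -0.80 for the miR-71 passenger and -0.76 for miR-71. These 12 held with each L1 library left out in turn, and 9 of them, namely the miR-35 family and miR-235, held under each alternative tried.

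From early to late embryos the log2 fold change was larger in late embryos by 1.16 for miR-253, 1.02 for miR-38, 0.82 for miR-65 and 0.78 for miR-35, which held under each alternative. It was also larger by 0.81 for miR-37, 0.95 for miR-34, 0.73 for miR-64, 0.68 for miR-250, 0.61 for miR-44, 0.55 for miR-61, 0.45 for miR-36 and 0.44 for miR-39, which missed the threshold when 1 to 3 of the 4 early embryo libraries were the one left out. With any 1 of those 4 libraries left out the threshold was missed by the miR-239a passenger (0.75), miR-355 (0.66), miR-234 (0.61), miR-71 (0.58), miR-1 (0.50), miR-790 (0.46), miR-40 (0.45), miR-235 (0.40), miR-42 (0.38) and miR-228 (0.38). It was smaller in late embryos for miR-1834 (-1.71), the miR-1829b passenger (-1.16) and the miR-67 passenger (-0.68), each of which missed the threshold without mutant replicate 2 of the early embryos, and both passengers also without mutant replicate 2 of the late embryos. The median over all strands in this comparison was 0.20, so that values near it are not apart from the rest. miR-790 was lower in the mutant at both stages (-0.87 in early and -0.51 in late embryos), so its positive difference was a smaller fall.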

How the results depend on the processing

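Counts of strands were 27 higher and 10 lower. They were 17 and 2 with legacy = FALSE, an alternative added after seeing the data, and 7 and 0 in 1 fit of all 32 libraries, where 17 and 1 had an unadjusted p under 0.05. DESeq2 gave 26 and 10. Scaled by total counts, 21 were higher and 66 lower, so that 24.1% of calls were higher in place of 73.0%. Scaled by counts outside the 22 miRNAs they were 34 and 7. A fit of early embryo, late embryo and L1 libraries gave 2 lower, a threshold of 0.05 gave 26 lower, and the replicate block gave 26 higher and 6 lower. Whether the replicate numbers pair the samples was not settled. Calls lost under the block were those of miR-51, miR-234, miR-1829c and the passengers of miR-67 and miR-790. Without 1 library, 20 to 29 strands were higher and 3 to 13 lower, the lowest of each without mutant replicate 2. Calls lost there were those of miR-1, miR-34, miR-50, miR-51, miR-53, miR-61, miR-66, miR-228, miR-234, miR-355, miR-1829c, miR-1834 and the passengers of miR-67, miR-790 and miR-1829b. Without wild-type replicate 1, miR-66, miR-1834 and the passengers of miR-790 and miR-1829b missed the threshold, without wild-type replicate 2 miR-53 and miR-234, and without mutant replicate 1 miR-66 and the passengers of miR-787 and miR-790. Hairpins with a lower ratio numbered 2, or 0 with a filter at 50 CPM, and 1 to 2 without 1 library (1 without wild-type replicate 2 or mutant replicate 1). Those with a higher ratio numbered 14 to 22. Strands that differed between early and late embryos numbered 84, against 45 at a threshold of 0.01, 52 with the replicate block and 29 to 64 without 1 library, the fewest without early embryo mutant replicate 2. Between late embryos and L1 they numbered 19, against 30 by DESeq2, 11 at 0.01 and 11 to 41 without 1 library, the most without L1 wild-type replicate 1. The surplus was 14.3%, or 15.2% with the strands called higher. Under total-count scaling 24 of the 90 named strands changed sign. Of these, 17 (miR-244 and miR-797 among them) passed under neither scaling, and 7 passed under one, namely miR-2 (-0.13), miR-58 (-0.089), miR-66 (-0.022), miR-72 (-0.11), miR-82 (-0.18), miR-87 (-0.14) and miR-228 (-0.017). Of 549 values of the 37 called strands under the alternatives, 438 passed in the same direction, 109 missed the threshold and 2 turned. The causes were not tested.

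With 2 libraries a genotype, exact tests of single values cannot go below 0.333. A level of 5 CPM stands for 38.4 to 47.5 counts a late embryo library.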
